A study of Homo sapiens with 10 samples.

Results

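The unfolded protein and amino acid stress genes are 36 genes taken as a list by name: ATF4 and its targets (21 genes) and the genes that fold proteins in the endoplasmic reticulum (ER) or remove them from it (15 genes). A named probe was found for 35 of them among the 18665 genes named on the HN5 arrays and for 34 among the 20046 genes named on the FaDu arrays. HN5 and FaDu are established lines from human head and neck squamous carcinomas, and both were transfected with precursor molecules at 30 nM, either of the microRNA miR-7 or of a negative control, miR-NC. RNA was collected after 24 h and hybridized to Illumina BeadChips, 1 array per sample, with a different array type for each line. HN5 had 2 arrays in each group and FaDu, going by its labels, had 3 in each. The methods speak of experimental replicates without saying that these were separate cultures, so p-values measure only the spread between these arrays, which may be technical. The arrays measured the pooled RNA of each culture, so fewer expressing cells and less RNA per cell cannot be told apart.

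When proteins misfold in the ER, or when amino acids run short, kinases phosphorylate the translation factor eIF2. Most protein synthesis then slows while translation of ATF4 is favoured, and ATF4 with its partners switches on genes for amino acid synthesis and uptake, for tRNA charging and for feedback on the pathway. The ER has further sensors, IRE1, which splices the XBP1 message, and ATF6, which is released by proteolysis. Both raise the chaperones and degradation factors of the organelle, the best known of which is BiP, encoded by HSPA5. ATF4 activity can change with no change in the ATF4 message, so its targets are usually read beside it.

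The mature strand of miR-7 is shown because it is the agent both lines received. Its seed, bases 2 to 8, is in capitals, and the sequence is that of hsa-miR-7-5p in RefSeq (GRCh38.p14). The records used place it at chr9:83969811-83969834 on the minus strand and at chr19:4770700-4770723 on the plus strand, which may not be every locus.
hsa-miR-7-5p: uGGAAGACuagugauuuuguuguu

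Matches to the DNA elements of the 2 branches in the members' promoters are shown as a description of the genes. Members were listed by name as ATF4 targets or ER genes, so the shares below are not independent of that choice. RefSeq promoters, from 250 bases before to 50 after the start of the gene, were found for 32 of the 36 members. The ATF4 element was searched as TGATGNAA on both strands. It was present in 6 of 18 promoters of ATF4 and its targets (33.3%), in 1 of 14 of the ER genes (7.14%) and in 3.67% of all 27305 promoters. The ER stress element was searched as CCAAT and CCACG separated by 9 bases, also on both strands. It was present in 0 of 18 promoters of ATF4 and its targets, in 5 of 14 of the ER genes (35.7%) and in 0.0806% of all promoters. Matches are letters only and were not tested for binding. In the lines below the capitals mark the match, read on the strand that holds it, with positions of the window in GRCh38.p14: ASNS chr7:97872459-97872486, CHAC1 chr15:40953252-40953279, ATF3 chr1:212565206-212565233, HSPA5 chr9:125241387-125241413, XBP1 chr22:28800599-28800625 and CRELD2 chr22:49918550-49918576.
ASNS, ATF4 element: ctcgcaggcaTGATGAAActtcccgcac
CHAC1, ATF4 element: ctggcaggagTGATGCAAcggcagggga
ATF3, ATF4 element: aaggtcaggaTGATGGAAggctgtcata
HSPA5, ER stress element: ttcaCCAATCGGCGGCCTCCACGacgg
XBP1, ER stress element: ctggCCAATCGCGGAGGGCCACGaccg
CRELD2, ER stress element: tggcCCAATCCGAGTTCGCCACGagag

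EGFR, a known target of miR-7, was examined first as a check of the labels. In HN5 its normalized log2 level was 12.11 and 12.05 on the miR-7 arrays, against 13.81 and 13.68 on the miR-NC arrays, a log2 fold change of -1.67 ± 0.18 (SE; limma adjusted p = 0.0492). In FaDu it was 9.61, 9.48 and 9.46 on the arrays labelled miR-7, against 7.91, 7.98 and 7.94 on those labelled miR-NC, a log2 fold change of 1.57 ± 0.07 (adjusted p = 2.64e-06). The FaDu labels thus give EGFR the direction opposite to HN5 and opposite to the one the study describes, and every FaDu sign in this text goes by the labels and would turn if they were crossed. Among the HN5 arrays, miR-7 replicate 2 stood apart, with correlations of 0.969 to 0.974 to the others, against 0.987 to 0.991 among the rest. Of the squamous epithelium markers, 5 of 8 had a probe and all 5 were detected on every array of both lines. Fibroblast, leukocyte and endothelial markers were detected on every array for 3 of the 13 genes with a probe in HN5 (COL1A1, CD14 and PECAM1) and for 2 of 13 in FaDu (CD14 and CDH5).

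In HN5 cells, several genes that respond to ATF4 lay higher with miR-7, led by DDIT3 at 2.02-fold and VLDLR at 2.12-fold, and the chaperone gene HSPA5 lay lower, but no member passed the test across all genes. Of 32 members tested, 0 lower and 0 higher ones passed a Benjamini-Hochberg adjusted p of 0.05 by limma, where 0.126% of 9549 genes were called lower and 0.178% higher. At an unadjusted p under 0.05, 3 members were higher and 1 was lower by limma, against 7.58% of all genes higher and 5.62% lower, and the methods' t-test also gave 0 after adjustment. The smallest adjusted p of a member was 0.139. The median half-width of the members' 95% intervals was 0.52 on the log2 scale, so for many of them smaller changes could not be told from 0 even without adjustment. The adjusted test asked for larger changes: VLDLR at 1.08 (limma adjusted p = 0.139) and DDIT3 at 1.01 (adjusted p = 0.202) did not pass it. By the study's own thresholds, an unadjusted p under 0.05 and at least 1.5-fold, 3 members were higher (DDIT3, SESN2 and VLDLR) and 0 lower, which is 9.38% of the members higher against 6.01% of all genes, while 4.41% of all genes were lower.

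DDIT3 encodes CHOP, the transcription factor that ATF4 induces under prolonged stress. Its level was 10.35 and 10.64 on the HN5 miR-7 arrays, against 9.22 and 9.74 on the miR-NC arrays. Both miR-7 arrays lay above both miR-NC arrays, and the log2 fold change was 1.01 ± 0.25 (SE, n = 2 each; adjusted p = 0.202). VLDLR, a lipoprotein receptor gene that ER stress raises through ATF4 in mouse liver, measured 9.39 and 9.46 with miR-7 and 8.54 and 8.14 with miR-NC. The miR-7 arrays differed by far less than the gap to the controls, with a log2 fold change of 1.08 ± 0.21 (adjusted p = 0.139). SESN2, whose product restrains mTORC1 when leucine is scarce, measured 6.89 and 7.79 with miR-7, against 6.35 and 6.49 with miR-NC. Its log2 fold change of 0.91 ± 0.33 (adjusted p = 0.337) came with a wide gap between the 2 miR-7 arrays, the higher being replicate 2, the array that stood apart. The SESN2 signal was low, at 234.2 and 246.1 as scanned with miR-7, against 234.3 and 180.7 with miR-NC. Its log2 fold change was 0.49 without background correction and 0.31 with the authors' values, both under 1.5-fold.

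ATF4 itself did not separate the groups in HN5. The brightest of its 3 probes read 13.17 and 13.07 with miR-7, against 13.37 and 12.96 with miR-NC, so the groups overlapped (log2 fold change -0.04 ± 0.22). The other 2 probes gave log2 fold changes of 0.16 and -1.36, the second with a reading of 5.76 on miR-7 replicate 2 and readings between 8.45 and 8.78 on the other 3 arrays. TRIB3, the pseudokinase that feeds back on ATF4 and CHOP, read 11.30 and 11.28 with miR-7 and 11.30 and 11.20 with miR-NC. ATF3, a further ATF4-induced factor, overlapped as well (0.06 ± 0.20), and CEBPB, an ATF4 partner, differed by -0.17 ± 0.18. PPP1R15A encodes GADD34, the phosphatase subunit that restores eIF2. It read 12.43 and 12.82 with miR-7 and 12.31 and 12.11 with miR-NC, with no overlap and a log2 fold change of 0.41 ± 0.22 (adjusted p = 0.471). DDIT4, an mTORC1 inhibitor also called REDD1, gave 0.47 ± 0.21 without overlap. For NUPR1, a stress-induced chromatin protein, the probes disagreed: the brighter read 8.01 and 6.39 with miR-7 and 6.33 and 7.41 with miR-NC, while the dimmer read 7.20 and 7.65 with miR-7, against 6.15 and 6.55 with miR-NC.

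The genes for making serine and asparagine all had positive values in HN5, none past the test. ASNS, asparagine synthetase and a classical ATF4 target, read 12.31 and 12.79 with miR-7, against 12.18 and 12.04 with miR-NC, a log2 fold change of 0.44 ± 0.23 (adjusted p = 0.468). PHGDH, PSAT1 and PSPH, the enzymes of serine synthesis in their order of action, gave 0.48 ± 0.20, 0.39 ± 0.21 and 0.30 ± 0.24. PHGDH and PSAT1 did not overlap between groups and PSPH did. On the transport side SLC7A11, the cystine carrier, gave 0.39 ± 0.20 without overlap. SLC3A2, the heavy chain it shares with the leucine carrier SLC7A5, gave 0.03 ± 0.20, and SLC7A5 gave -0.08 ± 0.20. Among tRNA ligases, WARS1 differed by 0.18 ± 0.19 (second probe -0.08), AARS1 by 0.05 ± 0.21 and CARS1 by -0.45 ± 0.26. CARS1 was detected on 1 of the 2 miR-7 arrays. CHAC1, which degrades glutathione, did not pass the detection filter in either line and was not tested.

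Most ER folding genes of HN5 had negative values. HSPA5, the BiP chaperone that holds the ER sensors inactive, read 10.09 and 10.46 with miR-7, against 10.84 and 10.88 with miR-NC. The groups were apart, with a log2 fold change of -0.58 ± 0.21 (adjusted p = 0.337), just short of the 1.5-fold threshold. EDEM1, which hands misfolded glycoproteins to degradation, read 8.67 and 8.57 with miR-7, against 9.40 and 8.79 with miR-NC (-0.47 ± 0.26). The disulphide isomerase genes PDIA4 and PDIA6 gave -0.27 ± 0.23 and -0.24 ± 0.20, and HSP90B1, the ER member of the HSP90 family, gave -0.18 ± 0.20. CRELD2, MANF, SDF2L1 and CALR, all ER-resident, lay between -0.09 and 0.12. DNAJB9, a co-chaperone of BiP and a target of spliced XBP1, had its groups apart in the positive direction. It read 10.67 and 10.81 with miR-7, against 10.41 and 10.26 with miR-NC (0.40 ± 0.19, adjusted p = 0.43). XBP1 read 11.85 and 12.14 with miR-7, against 11.66 and 11.44 with miR-NC (0.45 ± 0.21, adjusted p = 0.425), although its second probe gave 0.10. DNAJC3, the co-chaperone P58IPK, had a log2 fold change of -1.41 ± 0.96, which rested on 1 array: it read 7.74 and 4.60 with miR-7, not detected on replicate 2, against 7.49 and 7.68 with miR-NC, and without that array the value was 0.16.

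**Figure D1:**
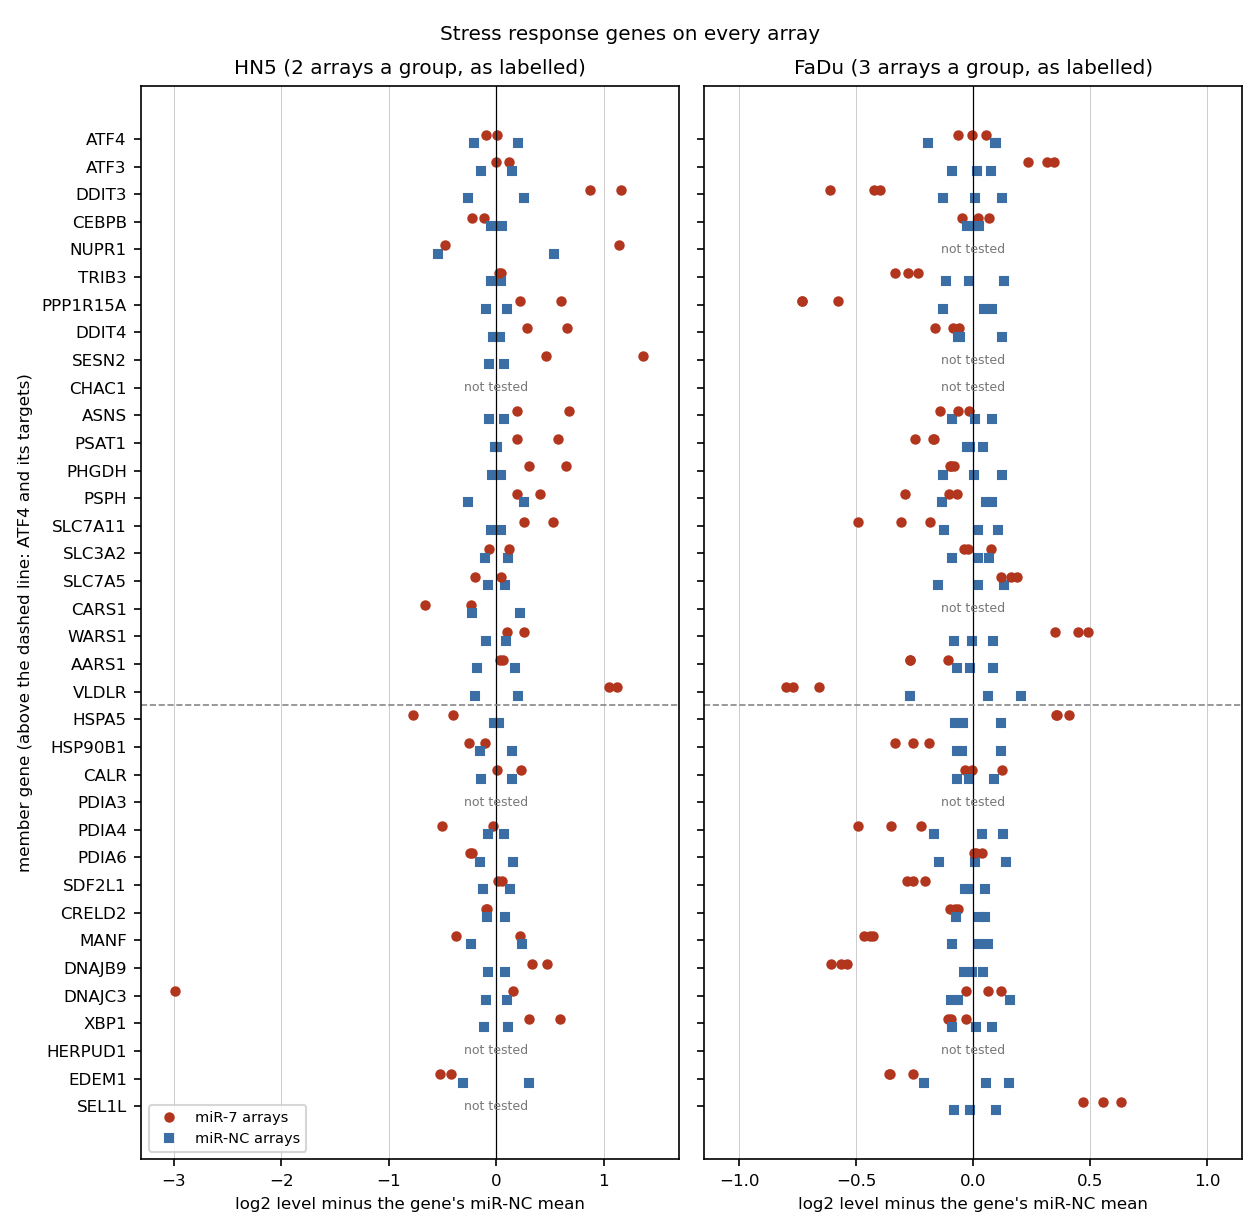
Level of the members tested (32 in HN5 and 30 in FaDu, the others marked as not tested) on every array, as the normalized log2 value minus the mean of that gene's miR-NC arrays (x axis; miR-7 as circles, miR-NC as squares), in HN5 on the left and FaDu on the right, with different x ranges. In HN5 the miR-7 circles of DDIT3, SESN2 and VLDLR lie to the right of their squares and those of HSPA5 to the left, and DNAJC3 has 1 miR-7 array far below the rest; in FaDu, as labelled, PPP1R15A, VLDLR, DNAJB9 and DDIT3 lie to the left.

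Set side by side, ATF4 and its targets had a median log2 fold change of 0.32 over 20 tested genes and the ER genes one of -0.14 over 12, against 0.04 over all 9549 genes. Of the first list 16 values were positive and 4 negative, and of the second 4 were positive and 8 negative. Groups that did not overlap were seen for 10 of 20 genes upward and 2 downward in the first list, and for 2 of 12 upward and 3 downward in the second. Over all genes 27.7% lay apart upward and 20.5% downward, and over all 32 members 37.5% and 15.6%. Read against each gene's miR-NC mean, the median of ATF4 and its targets was 0.19 on miR-7 replicate 1 and 0.33 on replicate 2, against 0.06 and -0.06 on the miR-NC arrays. The ER genes gave -0.04 and -0.10 on the miR-7 arrays, against 0.08 and -0.08 on the miR-NC arrays, so that their miR-7 medians lay close to or within the range of the controls. On miR-7 replicate 2, 63.9% of all genes read higher than on replicate 1, as did 13 of the 20 genes of the first list. The part of that array in the lists' values was not tested further than by leaving it out, which gave medians of 0.19 for ATF4 and its targets and -0.04 for the ER genes. Leaving out miR-NC replicate 2 instead gave 0.08 and -0.32.

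In FaDu cells, which had 3 arrays a group and narrower errors, most of the members that passed the test lay lower on the arrays labelled miR-7, among them the GADD34, CHOP, DNAJB9 and MANF genes, while SEL1L, WARS1, HSPA5 and ATF3 lay higher. Of 30 members tested, 12 passed an adjusted p of 0.05 in the lower direction and 4 in the higher (limma). This is 40.0% lower and 13.3% higher, where 21.8% of all 9997 genes were called lower and 20.0% higher. VLDLR, one of the 12, passed the filter only through the arrays labelled miR-NC, where it was higher, so its call carries no weight of its own. It was not tested where detection on every array was required. With the signs turned the same genes would count as 12 higher and 4 lower. By the study's thresholds 2 members were lower (PPP1R15A and VLDLR, VLDLR with the same limit) and 0 higher, against 5.31% of all genes lower and 7.28% higher. Both groups' arrays lay apart for 13 members downward and 4 upward, 43.3% and 13.3%, against 28.5% and 25.0% of all genes. Most calls were small: 14 of the 16 were under 1.5-fold. The count of lower members was 6 with median scaling in place of quantile normalization, which lost the calls of SLC7A11, TRIB3, PSAT1, HSP90B1, SDF2L1 and EDEM1, and of HSPA5 and ATF3 among the higher ones. The count was 6 with no detection filter and 7 by the methods' t-test. Leaving out 1 array gave 6 without the one labelled miR-7 replicate 2, and 7 each without miR-7 replicate 3 and without miR-NC replicate 3. PPP1R15A, DNAJB9, DDIT3, MANF, SEL1L and WARS1 were called under every setting run.

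PPP1R15A was the clearest of the regulators. It read 8.44, 8.44 and 8.60 on the FaDu arrays labelled miR-7, against 9.26, 9.05 and 9.22 on those labelled miR-NC. All 3 lay below all 3, a log2 fold change of -0.68 ± 0.08 (SE, n = 3 each; adjusted p = 0.000353). DDIT3 read 6.43, 6.61 and 6.64 on the arrays labelled miR-7, against 6.91, 7.16 and 7.05 on those labelled miR-NC. The groups were apart here as well (-0.48 ± 0.09, adjusted p = 0.0037). TRIB3 was lower by a smaller amount, with 9.37, 9.27 and 9.33 on the arrays labelled miR-7, against 9.49, 9.59 and 9.74 on the arrays labelled miR-NC (-0.28 ± 0.08, adjusted p = 0.0239). ATF3 moved the other way, at 7.24, 7.16 and 7.27 on the arrays labelled miR-7, against 7.002, 6.94 and 6.84 on those labelled miR-NC (0.30 ± 0.07, adjusted p = 0.0122). The 3 probes of ATF4 gave log2 fold changes of -0.0047, -0.00089 and -0.03, and the brightest read 13.16, 13.10 and 13.04 on the arrays labelled miR-7, against 13.20, 12.91 and 13.20 on those labelled miR-NC. CEBPB gave 0.01 ± 0.07. NUPR1 and SESN2 did not pass the detection filter in FaDu.

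**Figure D2:**
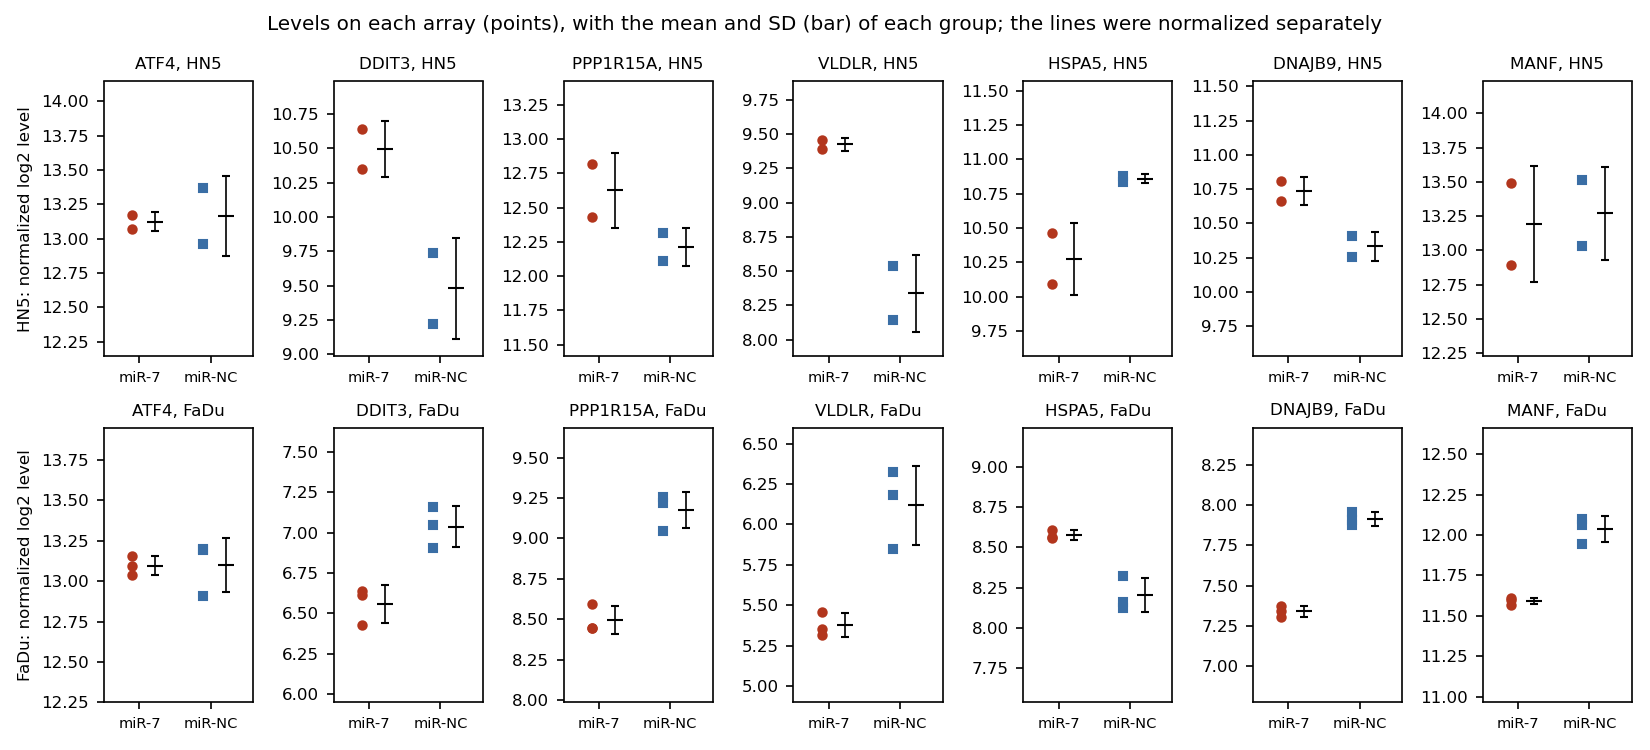
Normalized log2 levels of 7 members on each array (points), with the mean and SD of each group as a bar, in HN5 (upper row, n = 2 each) and FaDu as labelled (lower row, n = 3 each); miR-7 stands left of miR-NC and each panel has its own axis. ATF4 overlaps between groups in both lines, whereas DDIT3, PPP1R15A, VLDLR and DNAJB9 lie higher with miR-7 in HN5 and lower in FaDu, and HSPA5 does the reverse.

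Among the amino acid genes of FaDu the differences were slight. PSAT1 read 9.78, 9.79 and 9.71 on the arrays labelled miR-7, against 9.998, 9.93 and 9.94 on those labelled miR-NC (-0.20 ± 0.07, adjusted p = 0.0409). ASNS, with -0.07 ± 0.07, PHGDH, with -0.09 ± 0.08, and PSPH, with -0.16 ± 0.09, overlapped between groups and did not pass. The second probe of PSPH had the other sign, at 0.12. ASNS read 10.66, 10.53 and 10.60 on the arrays labelled miR-7, against 10.58, 10.68 and 10.75 on those labelled miR-NC, and its second probe gave -0.04. SLC7A11 read 7.02, 6.84 and 7.15 on the arrays labelled miR-7, against 7.21, 7.44 and 7.35 on those labelled miR-NC (-0.33 ± 0.10, adjusted p = 0.028). SLC3A2 and SLC7A5 gave 0.0047 ± 0.07 and 0.16 ± 0.08. DDIT4 gave -0.10 ± 0.08.

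The tRNA ligases of FaDu split. WARS1, the tryptophan enzyme, read 11.08, 11.22 and 11.18 on the arrays labelled miR-7, against 10.65, 10.81 and 10.72 on those labelled miR-NC (0.43 ± 0.08, adjusted p = 0.00237), and its other probe gave 0.51. AARS1, the alanine enzyme, had -0.22 ± 0.08 with the groups apart and an adjusted p of 0.0551. CARS1 had no named probe there. VLDLR was not above background on any of the arrays labelled miR-7 and was detected on all 3 labelled miR-NC. It read 5.32, 5.35 and 5.46 on the arrays labelled miR-7, against 5.85, 6.33 and 6.18 on those labelled miR-NC, so the gene was at least 1.53-fold lower there. Because it entered the fit only through the group in which it was higher, no test is given for it. The bound sets the mean of the bright group against the lowest detected signal of each dim array, or the dim probe's own value where that was higher.

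The ER genes of FaDu were also divided. DNAJB9 read 7.35, 7.31 and 7.37 on the arrays labelled miR-7, against 7.87, 7.91 and 7.96 on those labelled miR-NC, with the smallest error of any member (-0.57 ± 0.06, adjusted p = 0.000226). MANF, a secreted factor of the ER lumen, read 11.60, 11.57 and 11.61 on the arrays labelled miR-7, against 11.95, 12.10 and 12.06 on those labelled miR-NC (-0.44 ± 0.07, adjusted p = 0.0013). PDIA4 read 7.82, 7.56 and 7.70 on the arrays labelled miR-7, against 8.09, 8.18 and 7.88 on the arrays labelled miR-NC (-0.36 ± 0.10, adjusted p = 0.022). Smaller still were EDEM1 (-0.32 ± 0.10), HSP90B1 (-0.26 ± 0.08) and SDF2L1 (-0.25 ± 0.07), with adjusted p of 0.0308, 0.029 and 0.0165. All 6, named here because they passed the test, had their groups apart, as did 28.5% of all FaDu genes in this direction.

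HSPA5 went against these chaperones. It read 8.56, 8.61 and 8.56 on the arrays labelled miR-7, against 8.13, 8.16 and 8.32 on those labelled miR-NC (0.37 ± 0.08, adjusted p = 0.00467). SEL1L, the adaptor of the ER degradation ligase, had the largest positive value, with 6.48, 6.40 and 6.31 on the arrays labelled miR-7, against 5.94, 5.83 and 5.76 on those labelled miR-NC (0.55 ± 0.08, adjusted p = 0.000779). It was tested only in FaDu. XBP1 read 10.19, 10.25 and 10.17 on the arrays labelled miR-7, against 10.29, 10.36 and 10.19 on those labelled miR-NC, which overlapped (-0.08 ± 0.07, second probe -0.13). CALR, PDIA6, CRELD2 and DNAJC3 lay between -0.08 and 0.05 and did not pass. PDIA3 did not pass the detection filter in either line, and HERPUD1 had no named probe in either, so neither was tested.

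As medians the 2 lists hardly differed in FaDu. ATF4 and its targets had a median log2 fold change of -0.10 over 17 tested genes, with 6 called lower and 2 higher. The 6 include VLDLR, which passed the filter only through the arrays where it was higher, so its call carries no weight. The ER genes had a median of -0.08 over 13, with 6 lower and 2 higher. Over all genes the median was -0.03, with 21.8% called lower and 20.0% higher. On the single arrays the median of the first list was -0.09, -0.10 and -0.10 on those labelled miR-7, against 0.0017, 0.0062 and 0.02 on those labelled miR-NC. For the ER genes it was -0.10, -0.08 and -0.11 on the arrays labelled miR-7, against 0.0075, 0.05 and -0.02 on those labelled miR-NC.

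**Figure D3:**
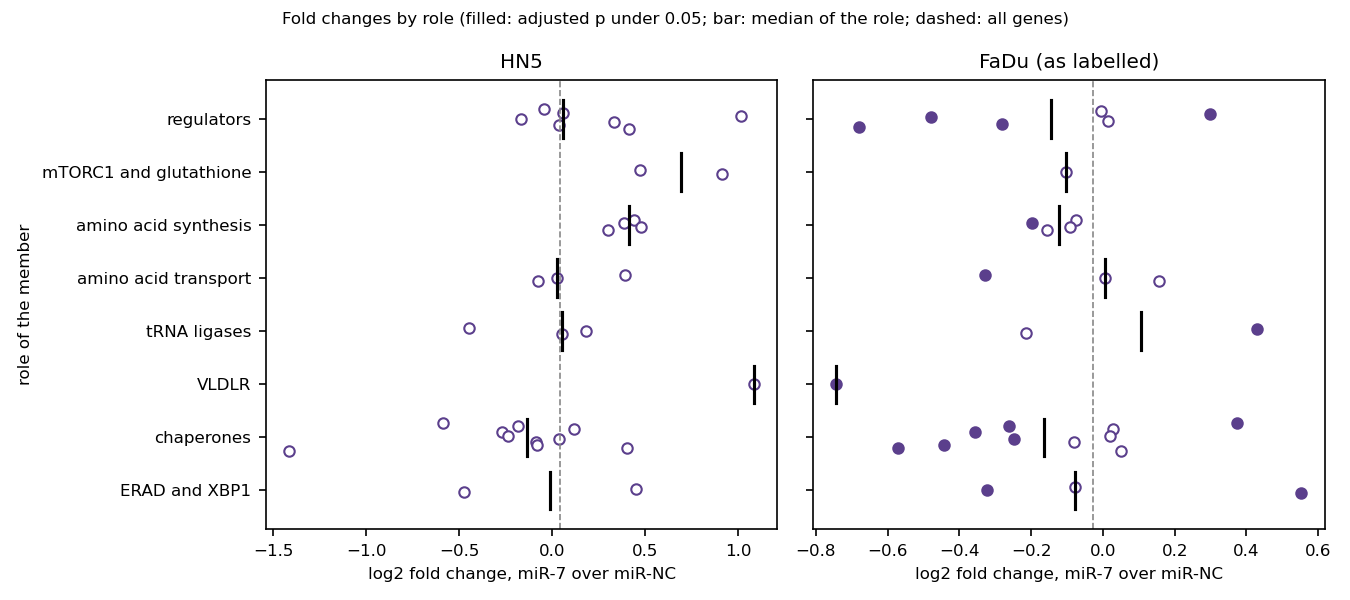
Log2 fold change, miR-7 over miR-NC, of each tested member by its role, in HN5 (left) and FaDu as labelled (right), with x ranges that differ; filled points passed an adjusted p under 0.05, the bar is the median of the role and the dashed line the median of all genes. In HN5 no point is filled and the 4 amino acid synthesis genes lie between 0.30 and 0.48. In FaDu the filled points lie on both sides of the dashed line. The filled VLDLR point passed the filter only through the arrays labelled miR-NC, where it was higher, so its fill carries no weight.

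Between the lines, the members past the threshold for a difference had opposite signs as labelled. Not all large values did: MANF (-0.08 in HN5, -0.44 in FaDu) and EDEM1 (-0.47 and -0.32) were negative in both. The difference of the 2 fold changes was tested on 10566 probes measured in both lines, of which 7.66% had a higher and 7.70% a lower value in HN5 at an adjusted p under 0.05. Each line had its own array type, so line and array type cannot be told apart in this difference. Among 35 probes of 29 members, 4 were past the threshold with a higher value in HN5 and 1 with a lower one, each from a different gene. VLDLR was among these 4, but its FaDu side is only a bound and it entered the test through the arrays where it was higher, so its difference has no exact size here. The difference, HN5 minus FaDu, was 1.49 ± 0.27 for DDIT3 (SE; adjusted p = 0.0136), 1.09 ± 0.24 for PPP1R15A (adjusted p = 0.0247) and 0.98 ± 0.20 for DNAJB9 (adjusted p = 0.0208). For HSPA5 it was -0.96 ± 0.22 (adjusted p = 0.0327). SLC7A11 followed with 0.72 ± 0.22 (adjusted p = 0.064). These calls depend on the FaDu labels: with the FaDu signs turned, 0 members differed between the lines, the smallest adjusted p being 0.432. Only 0.265% of all probes passed an adjusted p of 0.05 in that reading, so the 0 is no result about the members. At an unadjusted p under 0.05 there were 3 members, against 9.96% of all probes. Of 29 members tested in both lines, 19 had opposite signs (65.5%), against 65.4% of 8490 genes tested in both, so in this respect the members were like all genes. The difference also rests on the 2 HN5 arrays of each group, and without HN5 miR-NC replicate 2 the count of members was 0, without miR-NC replicate 1 it was 1 (VLDLR), and without miR-7 replicate 1 it was 12.

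**Figure D4:**
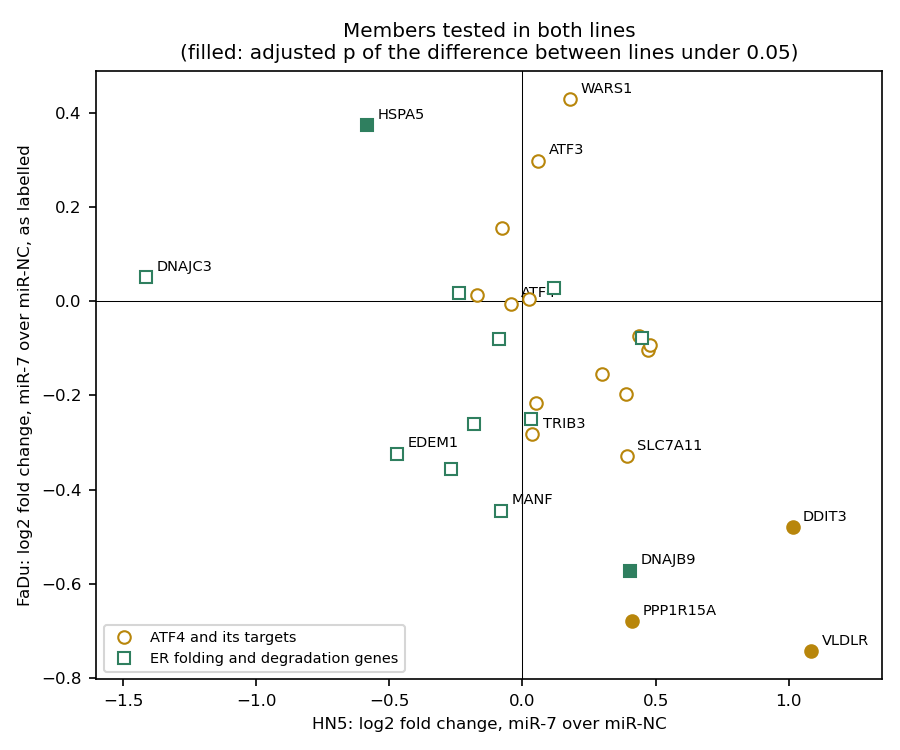
Log2 fold change in HN5 (x axis) against that in FaDu as labelled (y axis) for the 29 members tested in both lines, circles for ATF4 and its targets and squares for the ER genes; filled symbols have an adjusted p under 0.05 for the difference between lines. VLDLR (a bound in FaDu), DDIT3, PPP1R15A and DNAJB9 lie at lower right, HSPA5 at upper left, and ATF4 near the origin.

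The wider pathway was read from 101 further genes in 5 lists. In HN5, 0 of 87 tested genes passed an adjusted p under 0.05, and the methods' t-test called no gene of the whole array after adjustment. At an unadjusted p under 0.05 by limma, 6 of the 87 were lower and 3 higher, against 5.62% and 7.58% of all HN5 genes. In FaDu, 17 of 88 were lower and 13 higher on the arrays labelled miR-7, which is 19.3% and 14.8%, against 21.8% and 20.0% of all genes. The factors upstream of ATF4 gave the widest values. Among the eIF2 kinases and the subunits of eIF2 and its exchange factor, 5 of 14 were lower and 4 higher: the kinase gene EIF2AK1 had a log2 fold change of 1.57 ± 0.08 (adjusted p = 3.55e-06), EIF2S3, the gamma subunit of eIF2, 1.76 ± 0.09 (adjusted p = 5.11e-06), EIF2B3 1.22 ± 0.07 (adjusted p = 8.41e-06) and EIF2S1, the alpha subunit that the kinases phosphorylate, -1.22 ± 0.09 (adjusted p = 2.48e-05). In HN5 the same genes gave -0.65 ± 0.18 for EIF2AK1, -0.96 ± 0.19 for EIF2S3 and 0.68 ± 0.19 for EIF2S1, with adjusted p of 0.248, 0.137 and 0.245, and EIF2B3 was not tested there.

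The counts of the single lists stand beside shares of 21.8% lower and 20.0% higher over all FaDu genes. Of the ER stress sensors and their proteases, 3 of 6 were lower in FaDu and 0 higher: CREB3L2 (-0.59 ± 0.12), MBTPS1 (-0.32 ± 0.09) and MBTPS2 (-0.33 ± 0.09), the last 2 being the proteases that release ATF6. Of the further amino acid response genes, 1 of 20 was lower, the stress cytokine gene GDF15 (-0.58 ± 0.09, adjusted p = 0.00162), and 3 were higher, PYCR1 of proline synthesis (1.03 ± 0.09), JDP2 (0.28 ± 0.07) and the glycine carrier SLC6A9, which was not above background on any array labelled miR-NC and so was at least 1.37-fold higher. It passed the filter only through the arrays labelled miR-7, so no test is given for it. SLC6A9 had the smallest p of these lists in HN5, at -1.78 ± 0.20 (adjusted p = 0.057), and GDF15 gave 0.66 ± 0.18 there (adjusted p = 0.245). Of the other tRNA ligases, 3 of 16 were higher (QARS1, RARS1 and FARSA, between 0.26 and 0.35) and TARS1 was lower (-0.19 ± 0.07). Of the further folding and degradation genes, 7 of 32 were lower and 3 higher, led by the disulphide isomerases PDIA5 (-0.89 ± 0.08) and TXNDC5 (-0.88 ± 0.08), then DERL1 (-0.53 ± 0.09) and, upward, WFS1 (0.59 ± 0.10).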

How the data were processed

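Per the labels, total RNA of each sample was hybridized to 1 Illumina BeadChip array. The deposited intensity values were probe signals as scanned, not background-corrected or normalized, and beside each stood a deposited detection fraction, 1 minus the scanner software's detection p-value, from which p was recovered. The authors also deposited log2 values, which the submitters' processing notes tie to R 2.11.0. Those cells did not follow their probe identifiers and were realigned to the intensity order, where they kept the rank of every probe, before use as an alternative. The number of arrays limits the precision.

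Each line was processed separately. Signals were background-corrected with normexp on detection p (offset 16), quantile-normalized and put on the log2 scale, as limma's neqc does (limma 3.58.1, R 4.3.3). The filter kept a probe if all arrays of either group had a detection p under 0.01, the brightest probe of a gene represented it, and miR-7 was compared with miR-NC by lmFit and eBayes with Benjamini-Hochberg adjustment over all genes tested. Errors are SE unless marked SD. Gene names came from the platform annotation, which gave 1 gene for 27577 of 48802 HN5 probes and 30112 of 47230 FaDu probes. Fold changes of the lines were compared on shared probes using the moderated SE of each and degrees of freedom by Welch-Satterthwaite. The fit was tested on simulated data.

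Members and gene lists were chosen with earlier results of these data known. Values per array are given for members past the threshold in a line and for ATF4, DDIT3, TRIB3, ASNS, CHAC1, HSPA5, XBP1, HERPUD1 and DNAJB9 (where tested), and for others chosen after their values were seen (SESN2, VLDLR and PPP1R15A in HN5, NUPR1, DNAJC3 and EDEM1). Of each pathway list up to 4 genes with the smallest p past the threshold are named. Alternatives covered background correction, scaling, the authors' values, detection filter, probe choice, a replicate block, the methods' t-test and leaving out each array.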

Additional observations from a re-analysis of the deposited data

Results flagged for a closer look

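The members below had fold changes that differed between HN5 and FaDu, as labelled, in a test of the difference itself (HN5 minus FaDu on the log2 scale). Of 35 member probes, 4 had a higher and 1 a lower value in HN5. Over all 10566 probes 7.66% had a higher and 7.70% a lower value, and an excess of members over these shares was not tested. DDIT3 differed by 1.49 (adjusted p = 0.0136), from 1.01 in HN5 and -0.48 in FaDu. PPP1R15A differed by 1.09 (adjusted p = 0.0247), DNAJB9 by 0.98 (adjusted p = 0.0208) and HSPA5 by -0.96 (adjusted p = 0.0327). For VLDLR the fitted difference was 1.83, but this is not a measured size: its FaDu probe was not above background on any array labelled miR-7, which allows only a bound of at least 1.53-fold lower, and it entered the test through the arrays labelled miR-NC, where it was higher. With the FaDu signs turned, a reading chosen after seeing the data, none of the 5 remained past the threshold, where 0.265% of all probes were.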

How the results depend on the processing

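With the FaDu signs turned, 0 members and 0.265% of all probes differed between the lines. As labelled, 7.66% of all probes had a higher and 7.70% a lower value in HN5, and the count of members was 5. That count was 3 with median scaling (DDIT3, HSPA5, VLDLR) and 2 with a replicate block (DDIT3, VLDLR), and 0 to 12 with 1 array left out. Same-numbered arrays did not deviate together after normalization (correlations of 0.0005 in HN5 and of 0.06, -0.03 and 0.03 in FaDu). With 2 arrays a group, the HN5 correlations are 1 number with its sign turned, so they cannot decide whether the numbers pair the arrays. As scanned, the median signal was higher for replicate 1 than for replicate 2 in both HN5 groups (139 against 114.5, and 158.5 against 123.5). In FaDu, replicate 1 was the dimmest of both groups (120.7 and 114.4). The block otherwise lost 1 member call, PSAT1 in FaDu, leaving 15 of 16, while the count of all genes called was 11 against 29 in HN5.

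In HN5, 0 members passed an adjusted p under 0.05 under every other setting that kept all arrays. Leaving out 1 array leaves a lone array in its group, which is assumed to vary like the other group. Member calls appeared only when a miR-7 array was left out. Calls over all genes also rose there, so these member calls are no result about the members and are not listed. DDIT3, SESN2 and VLDLR already had their groups apart, so their positive log2 fold changes in all 4 omissions were largely fixed in advance and add no support. At the study's thresholds the lower count was 1 with median scaling. The higher count was 2 without background correction, 2 with the authors' values and 1 by the methods' t-test. Median scaling moved the median of all HN5 genes to -0.15, against 0.04. The median of ATF4 and its targets was then 0.14, or 0.29 above all genes, against 0.27 above in the values reported, and it was 0.18 with the authors' values and 0.0847 to 0.47 with 1 array left out. The median of the ER genes was -0.23 with median scaling, or -0.08 relative to all genes, against -0.18 relative in the values reported, and -0.32 to -0.0366 with 1 array left out.

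In FaDu the lower count of 12 became 6 with median scaling, 6 with no detection filter and 7 by the methods' t-test, and 6 to 9 with 1 array left out. The higher count of 4 became 2 with median scaling. At the study's thresholds the lower count was 0 without background correction, 0 with the authors' values and 1 with detection on every array, and the higher count was 0 to 1 with 1 array left out. The median of ATF4 and its targets was -0.13 with median scaling, -0.0918 with the mean of detected probes and -0.15 to -0.0819 with 1 array left out. The median of the ER genes was -0.13 with no detection filter and -0.12 to -0.0542 with 1 array left out.

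Signs turned for members near 0 or with 1 array far from the rest. With median scaling the log2 fold changes in HN5 were -0.18 for ATF3, -0.15 for TRIB3, -0.0967 for SLC3A2, -0.0294 for AARS1, -0.0736 for CALR and -0.0894 for SDF2L1, and in FaDu 0.15 for ATF4, 0.000409 for PHGDH, -0.00739 for CALR and -0.00708 for PDIA6. SLC3A2 in FaDu was -0.0122 with the mean of detected probes. With 1 array left out, HN5 values ran between -0.25 and 0.17 for ATF4, -0.0859 and 0.20 for ATF3, -0.19 and 1.29 for NUPR1 (over both its probes), -0.0119 and 0.0874 for TRIB3, -0.0817 and 0.14 for SLC3A2, -0.19 and 0.0442 for SLC7A5, -0.12 and 0.23 for AARS1, -0.0241 and 0.26 for CALR, -0.0911 and 0.16 for SDF2L1, -0.37 and 0.22 for MANF, and -2.97 and 0.16 for DNAJC3. The brightest NUPR1 probe changed without miR-7 replicate 1 and without miR-NC replicate 2, and the probe reported otherwise gave -0.48 and 0.87 there. FaDu values ran between -0.10 and 0.0451 for ATF4, -0.0155 and 0.0429 for CEBPB, -0.0396 and 0.038 for SLC3A2, -0.0187 and 0.074 for CALR, and -0.0556 and 0.0883 for PDIA6.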
